A study of Mus musculus with 8 samples.

Results

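Translation initiation factors are the proteins that bring a ribosome, an initiator tRNA and a messenger RNA together at the start codon. The genes described here are those whose symbol begins with Eif, without the eIF2 kinases Eif2ak1 to Eif2ak4 and without pseudogene symbols, and each is represented by whichever of its rows averaged highest across the 8 arrays. This gave 45 genes out of 19938 measured: 4 of eIF1, 5 of eIF2, 5 of eIF2B, 11 of eIF3, 13 of eIF4, 2 4E-binding proteins, 4 of eIF5 and 1 of eIF6. Groups follow gene symbols, so a gene need not code for a subunit of the factor it is listed under. All 45 were measured on Affymetrix whole-transcript arrays in heart RNA from 4 control and 4 MHC-Plin5 animals. All 8 mice were male, 12 weeks old, of the genetic background given as c57/bl, and labelled as fasted. MHC-Plin5 is a transgene that overexpresses Plin5, the gene of the lipid droplet coat protein perilipin 5, in cardiomyocytes. The labels give the other group only as control, name no transgenic line and state no pooling. The design text speaks of 4 animals of each kind, so a heart stands for 1 mouse. Each level below is the deposited log2 value of a probe set on an array, so a step of 1 is a doubling of signal, and levels of different genes cannot be set against each other.

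Initiation runs in steps that these factors divide between them. eIF2 carries the initiator tRNA as a complex with GTP, eIF2B recharges eIF2 with GTP, and phosphorylation of the alpha subunit of eIF2 under stress turns eIF2 into an inhibitor of eIF2B. eIF1, eIF1A, eIF3 and eIF5 assemble on the small ribosomal subunit and scan for the start codon, the eIF4 group binds the cap and unwinds the messenger, and the 4E-binding proteins keep the cap-binding eIF4E away from its scaffold until the kinase mTORC1 phosphorylates them. eIF5B joins the large subunit, eIF6 keeps the subunits apart, and eIF5A helps the ribosome through difficult peptide bonds. In heart muscle this machinery sets how much protein is made when the organ grows or is stressed. The arrays measured transcripts only, and neither protein nor phosphorylation is shown by them.

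Plin5 itself was higher in each MHC-Plin5 heart (12.08 to 12.69) than in any control heart (8.58 to 9.04), with a log2 difference of 3.54 (SE 0.16, limma adjusted p = 6.9e-07), as the labels say. The median of an array was 5.99 to 6.04 for 6 hearts, at 6.24 in control 2 and at 6.18 in MHC-Plin5 4. All 7 cardiomyocyte markers were strongly expressed, with a mean over the list between 13.36 and 13.63 in every heart. Of these 7, 6 had a log2 difference below 0, and in 2 every MHC-Plin5 heart lay below every control heart. The mean over 4 atrial markers ranged from 7.77 to 11.61 in control and from 8.57 to 11.43 in MHC-Plin5 hearts, and all 4 had a log2 difference above 0. Over 6 fibroblast markers the mean ran from 8.71 to 9.13 in control and from 8.86 to 9.52 in MHC-Plin5 hearts, and over 7 macrophage and leukocyte markers from 6.76 to 7.24 and from 6.94 to 7.47. Above 0 were 6 of 6 fibroblast and 5 of 7 macrophage and leukocyte genes. Over 6 endothelial, 5 smooth muscle and pericyte and 4 adipocyte markers the ranges of the 2 groups overlapped too, as did the levels of Alas2, the 1 erythroid marker measured. Below 0 were 4 of 6 endothelial, 2 of 5 smooth muscle and pericyte and 4 of 4 adipocyte genes. Of the smooth muscle and pericyte genes, Rgs5 was lower in every MHC-Plin5 heart than in any control heart (-0.36, limma adjusted p = 0.0951). None of the 40 marker genes passed the test. In whole hearts, fewer cells of a type and less RNA per cell cannot be told apart, and the part of cell composition in the results was not tested.

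In MHC-Plin5 hearts 3 of the 45 initiation factor genes were higher and 0 were lower. They were Eif3c, a core subunit of eIF3, Eif2s2, the beta subunit of eIF2, and Eif4ebp1, the 4E-binding protein 4E-BP1, with 1.6-fold, 1.78-fold and 1.61-fold higher signal. A gene counts as called at a limma adjusted p under 0.05 over all 19938 genes. By that rule 3.25% of all genes were called, 2.08% higher and 1.17% lower. Among the 8899 genes with a mean level of at least 7, where 42 of the 45 members lie, 5.82% were called, 3.92% higher and 1.90% lower. The members' share was 6.67%, which is 3 genes. The median log2 difference over all 45 members was 0.11, against -0.03 over all genes and 0.02 over genes with a mean of at least 7. A difference above 0 was seen in 32 members, or 71.1%, against 42.5% of all genes and 54.3% of those with a mean of at least 7. Unadjusted, 13 members had a p under 0.05, all of them higher, where 8.69% of all genes and 15.6% of those with a mean of at least 7 did so in that direction. By the same measure 0 members were lower, against 7.86% of all genes and 11.1% of those with a mean of at least 7.

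**Figure D1:**
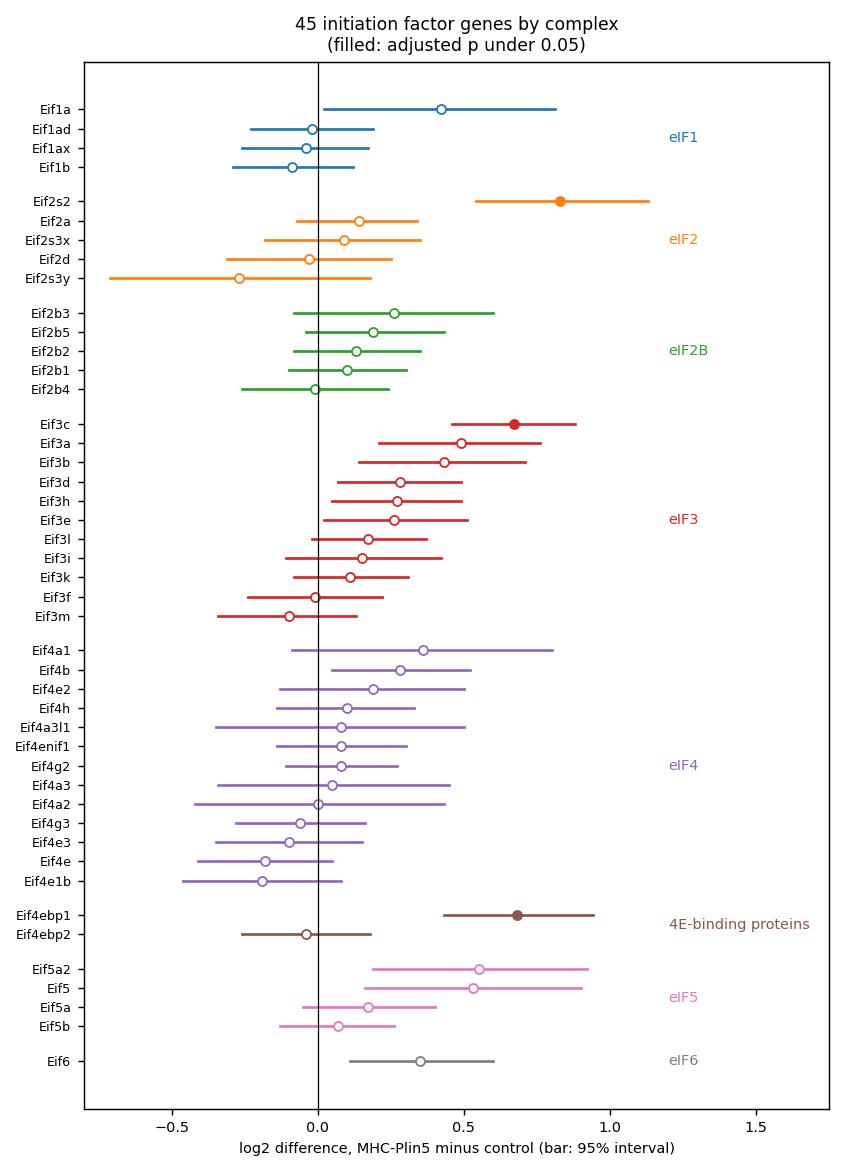
Log2 difference (MHC-Plin5 minus control, x axis) of the 45 initiation factor genes, grouped and coloured by complex, with bars for the 95% interval from limma; filled points have an adjusted p under 0.05. Eif2s2, Eif3c and Eif4ebp1 are filled, at 0.83, 0.67 and 0.68, and most of the other points lie between -0.2 and 0.5.

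The upstream regions of Eif2s2 and Eif3c are shown because these 2 of the called genes have a RefSeq promoter entry, while Eif4ebp1 has none in the table used. Each is the 250 bases before the annotated start on the minus strand of GRCm38.p6, written 5′ to 3′, at chr2:154892907-154893156 for Eif2s2 and chr7:126566367-126566616 for Eif3c, and capitals mark matches to the ETS core CCGGAA on either strand.
Eif2s2: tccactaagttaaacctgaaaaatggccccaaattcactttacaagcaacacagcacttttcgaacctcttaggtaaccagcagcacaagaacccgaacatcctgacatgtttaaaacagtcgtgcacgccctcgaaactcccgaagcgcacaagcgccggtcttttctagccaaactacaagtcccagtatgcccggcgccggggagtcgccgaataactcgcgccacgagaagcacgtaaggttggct
Eif3c: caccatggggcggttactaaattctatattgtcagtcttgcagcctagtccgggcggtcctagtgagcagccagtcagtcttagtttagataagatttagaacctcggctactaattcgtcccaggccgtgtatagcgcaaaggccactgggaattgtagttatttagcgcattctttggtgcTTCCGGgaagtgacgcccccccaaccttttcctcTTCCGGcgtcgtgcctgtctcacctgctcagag
The Eif3c region holds 2 such matches, at -67 to -62 and -33 to -28 from the start, and the Eif2s2 region holds 0. Neither holds TGATGNAA, the composite element of ATF4 and C/EBP factors, or CACGTG, the E-box of MYC and MAX. RefSeq entries were found for 35 of the 45 genes, 47 starts in all. In the 250 bases before them, on both strands, CCGGAA occurred at 34.0% of member starts and 12.0% of all 32851 starts. CACGTG occurred at 21.3% and 6.02%, in Eif1b, Eif3f, Eif3k, Eif4a1, Eif4e, Eif4h, Eif5a and Eif5a2. TGATGNAA occurred at 2.13%, that is at 1 start of Eif2s3x, and at 3.45% of all starts. These are matches of letters and no sites, and starts of 1 gene can overlap. Base composition differs between promoters and was not matched here.

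eIF2 brings the initiator tRNA, and of the 5 genes grouped with it by symbol only the beta subunit was called. Eif2s2 (chromosome 2, 154871410 to 154892906, GRCm38.p6) stood at 8.84, 8.77, 8.89 and 8.67 in control 1 to 4 and at 9.69, 9.82, 9.77 and 9.22 in MHC-Plin5 1 to 4. All 4 MHC-Plin5 hearts lay above all control hearts, and MHC-Plin5 4 was nearest to them. The log2 difference was 0.83 (SE 0.13, adjusted p = 0.00848), from a mean of 8.79 ± 0.10 in control to 9.63 ± 0.27 in MHC-Plin5 hearts (SD, n = 4 each). A second row with the same transcripts gave 8.35, 8.41, 8.22 and 8.21 in control and 8.96, 8.98, 8.89 and 9.21 in MHC-Plin5 hearts. In that row MHC-Plin5 4 was the highest heart rather than the lowest, and the groups again did not overlap. Its log2 difference was 0.71 (SE 0.10, adjusted p = 0.00428 over all rows with 1 symbol). The annotation gives both rows the same accessions, but probe positions were not used here, and either row, the one with 0.83 included, may lie at a processed copy of the gene rather than at the chromosome 2 locus.

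The gamma subunit of eIF2 binds GTP and the tRNA, and mice carry it on both sex chromosomes. Eif2s3x, the copy on the X, had a log2 difference of 0.09 (95% interval -0.18 to 0.35). Eif2s3y, the copy on the Y, had -0.27 (-0.71 to 0.18), with 8.94, 8.34, 8.46 and 8.52 in control and 7.73, 8.62, 8.65 and 8.20 in MHC-Plin5 hearts. MHC-Plin5 1 was the lowest of the 8 hearts and the groups overlapped. The difference between the 2 copies, taken within each heart, changed by 0.35 (SE 0.23, exact two-sided permutation p = 0.171, 0.300 adjusted over 6 pairs). Eif2a and Eif2d, which can deliver initiator tRNA by other routes, had log2 differences of 0.14 and -0.03. The alpha subunit gene Eif2s1 was not analysed here.

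None of the 5 eIF2B genes passed the test. eIF2B is the exchange factor that phosphorylated eIF2 blocks, with Eif2b1, Eif2b2 and Eif2b4 coding for its regulatory and Eif2b3 and Eif2b5 for its catalytic part. Their log2 differences were 0.10, 0.13, -0.01, 0.26 and 0.19. For Eif2b5, with the smallest p of the complex, the hearts stood at 8.71, 8.42, 8.79 and 8.55 in control and at 8.87, 8.75, 8.76 and 8.88 in MHC-Plin5, which overlap at control 3 (0.19, 95% interval -0.04 to 0.43, adjusted p = 0.405). The intervals of all 5 genes end at or below 0.60, so they do not reach the estimate of 0.83 for Eif2s2, and that gap was not tested. Eif2b3 stood at 8.13, 8.17 and 8.38 in MHC-Plin5 1 to 3 and at 7.56 in MHC-Plin5 4, below all control hearts (7.71 to 7.89). Without MHC-Plin5 4 its log2 difference was 0.42 with an adjusted p of 0.0398, and it was not called without any other single heart.

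eIF3, the largest factor, is a scaffold on the small ribosomal subunit. Among the factors it had the most genes with separate groups of hearts. Of the 11 measured, 1 was called higher and 0 lower, 9 had a log2 difference above 0, and the median was 0.26. The 4 MHC-Plin5 hearts lay above all 4 control hearts in 5 of them, Eif3a, Eif3c, Eif3d, Eif3h and Eif3l. Such separation in the higher direction was seen in 6.24% of all genes and in 11.9% of genes with a mean of at least 7. Over all 45 members it was seen in 8, or 17.8%, and in the lower direction in 0, where 5.0% of all genes and 7.47% of those with a mean of at least 7 had it.

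Eif3c (chromosome 7, 126546911 to 126566366), which links eIF3 to eIF1 and eIF5, had the smallest p of all members. It stood at 10.52, 10.57, 10.50 and 10.35 in control and at 11.29, 11.16, 11.07 and 11.10 in MHC-Plin5 hearts. The hearts of each group lay close together, with a gap of 0.51 between the highest control and the lowest MHC-Plin5 heart. The log2 difference was 0.67 (SE 0.10, adjusted p = 0.00398; 10.48 ± 0.10 against 11.16 ± 0.10, SD, n = 4 each). Eif3a, the largest subunit, stood at 9.16, 9.21, 9.14 and 8.93 in control and at 9.47, 9.73, 9.83 and 9.35 in MHC-Plin5 hearts. Its groups did not overlap, but its log2 difference of 0.49 (SE 0.12, adjusted p = 0.0604) missed the threshold. It passed with a filter at a mean of 7 (adjusted p = 0.0359), with an intensity trend in the variances (0.0470), the same with robust variances (0.0418), with array weights (0.0105) without MHC-Plin5 4 (0.0219) and without control 2 and MHC-Plin5 4 (0.0376).

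Eif3b, a core subunit like Eif3a and Eif3c, stood at 10.43, 10.41, 10.42 and 10.53 in control and at 10.80, 11.04, 11.14 and 10.53 in MHC-Plin5 hearts. MHC-Plin5 4 was level with control 4, and the other 3 MHC-Plin5 hearts were above all controls. The log2 difference was 0.43 (SE 0.13, adjusted p = 0.112), and 0.54 without MHC-Plin5 4 (adjusted p = 0.0178). Eif3b was not called without any other single heart. Eif3d, which can bind the cap of some messengers, stood between 9.86 and 9.95 in control and between 10.07 and 10.34 in MHC-Plin5 hearts. Its log2 difference was 0.28 (SE 0.10, adjusted p = 0.162). Eif3h, a subunit of the outer ring, had 11.50 to 11.57 against 11.66 to 11.98 (0.27, SE 0.10, adjusted p = 0.196). Eif3l, also of the outer ring, had 9.97 to 10.19 against 10.21 to 10.27 (0.17, SE 0.09, adjusted p = 0.376). The remaining 5 subunits, Eif3e, Eif3f, Eif3i, Eif3k and Eif3m, had log2 differences between -0.10 and 0.26 with overlapping groups. Rows that Eif3j1 and Eif3j2 share were left out of the 45 by the rule, and gave 0.25 and 0.23.

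**Figure D2:**
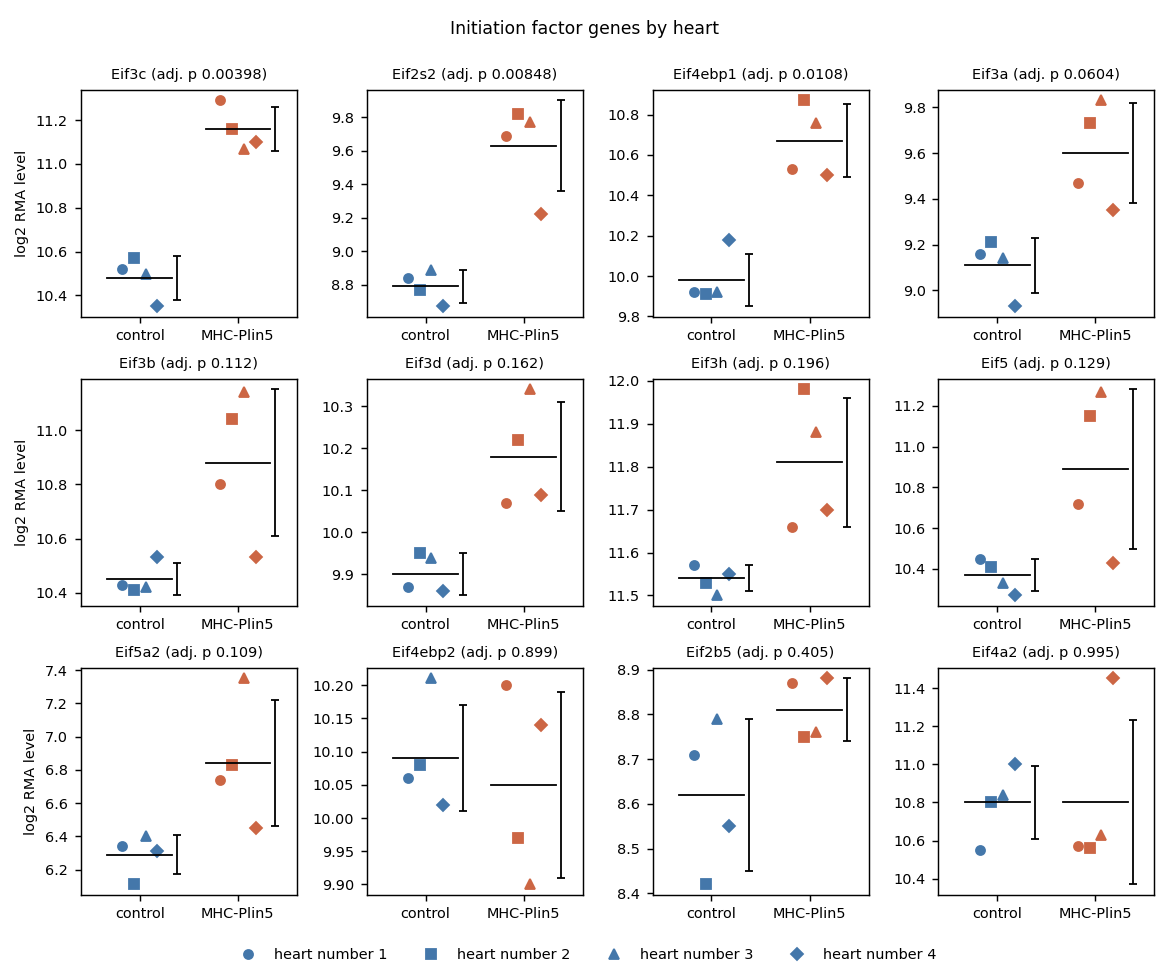
Log2 RMA level (y axis, its own scale in each panel) of 12 initiation factor genes in 4 control and 4 MHC-Plin5 hearts. A symbol marks the heart number within its group, which was not taken as a pairing, the line is the mean and the bar 1 SD. Eif3c, Eif2s2 and Eif4ebp1 separate the groups, and in Eif3b and Eif5 the heart MHC-Plin5 4 lies among or next to the control hearts.

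The eIF4 group recruits the messenger, and 0 of its 13 genes were called. Its median log2 difference was 0.08, with a range from -0.19 to 0.36. Eif4b, which helps the helicase eIF4A, had the smallest p, with 10.43, 10.17, 10.19 and 10.20 in control and 10.45, 10.65, 10.36 and 10.65 in MHC-Plin5 hearts. Control 1 stood apart from the other controls and above MHC-Plin5 3, and the log2 difference was 0.28 (SE 0.11, adjusted p = 0.203). The cap-binding protein itself, Eif4e, had 9.47 to 9.60 in control and 9.18 to 9.59 in MHC-Plin5 hearts (-0.18, 95% interval -0.41 to 0.05). Its other rows gave -0.32 and -0.14, and which of the 3 lie at the gene itself was not settled. The related Eif4e2, which binds caps without starting translation, and Eif4e3 had 0.19 and -0.10. Eif4g2, a scaffold that works without eIF4E, and Eif4g3, one of the scaffolds that bind eIF4E, had 0.08 (-0.11 to 0.27) and -0.06 (-0.28 to 0.16). Eif4g1 was not analysed here.

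The 2 forms of the eIF4A helicase were the most variable members of this group among MHC-Plin5 hearts. Eif4a1 stood at 11.94, 12.08, 11.83 and 11.82 in control and at 12.24, 12.52, 12.74 and 11.61 in MHC-Plin5 hearts. MHC-Plin5 1 to 3 were above all controls and MHC-Plin5 4 was below all of them, and 2 further rows of the gene gave the same order of hearts within MHC-Plin5, though any of the 3 rows may lie at a processed copy. Its log2 difference was 0.36 (SE 0.20, adjusted p = 0.427), and 0.58 without MHC-Plin5 4 (adjusted p = 0.0310). It was 0.28 without MHC-Plin5 2 (adjusted p = 0.668) and 0.20 without MHC-Plin5 3 (adjusted p = 0.787). Eif4a2 ran the other way, at 10.55, 10.80, 10.84 and 11.00 in control and at 10.57, 10.56, 10.63 and 11.45 in MHC-Plin5 hearts. Here MHC-Plin5 4 was the highest of all 8, the log2 difference was 0.00 (SE 0.19), and it was -0.21 without that heart (adjusted p = 0.317). Within each heart the level of Eif4a1 over Eif4a2 changed by 0.35 (SE 0.47, exact permutation p = 0.486), and by 0.79 without MHC-Plin5 4.

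The 4E-binding proteins hold eIF4E back, and only the first of them was called. Eif4ebp1 (chromosome 8, 27260327 to 27275656) stood at 9.92, 9.91, 9.92 and 10.18 in control and at 10.53, 10.87, 10.76 and 10.50 in MHC-Plin5 hearts. The groups did not overlap, with control 4 nearest to the MHC-Plin5 hearts. The log2 difference was 0.68 (SE 0.12, adjusted p = 0.0108; 9.98 ± 0.13 against 10.67 ± 0.18, SD, n = 4 each). Eif4ebp2 had 10.06, 10.08, 10.21 and 10.02 in control and 10.20, 9.97, 9.90 and 10.14 in MHC-Plin5 hearts. Its log2 difference was -0.04 with a 95% interval from -0.26 to 0.18. The level of Eif4ebp1 relative to Eif4ebp2 was -0.28 to 0.15 in control and 0.33 to 0.90 in MHC-Plin5 hearts, so the 2 groups did not overlap. That change of 0.72 (SE 0.18) had an exact two-sided permutation p of 0.0286, the smallest that 4 against 4 hearts can give, and 0.171 adjusted over the 6 pairs, which does not pass. A lone pair at that smallest p cannot pass over 6 pairs, so the adjusted value does not speak to the size of the change. The row of Eif4ebp3 is shared with Ankhd1 and cannot be read as either gene. It stood at 6.72 to 6.91 in control and at 6.48 to 6.63 in MHC-Plin5 hearts (-0.26, adjusted p = 0.258 over all rows).

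In the eIF1, eIF5 and eIF6 groups 0 of 9 genes were called. Eif5, which makes eIF2 hydrolyse its GTP at the start codon, stood at 10.45, 10.41, 10.33 and 10.27 in control and at 10.72, 11.15, 11.27 and 10.43 in MHC-Plin5 hearts. MHC-Plin5 4 fell within the control range, and the log2 difference of 0.53 (SE 0.17, adjusted p = 0.129) was 0.68 without it (adjusted p = 0.0185). Eif5 was not called without any other single heart. Eif5a2, the less common form of eIF5A, had 6.34, 6.11, 6.40 and 6.31 in control and 6.74, 6.83, 7.35 and 6.45 in MHC-Plin5 hearts. Its groups were separate by 0.05 (log2 difference 0.55, SE 0.17, adjusted p = 0.109). Eif5a, the main form, had 0.17 (95% interval -0.05 to 0.40) in the row used and 0.04 in a second row, and either may lie at a processed copy. From the row used, the change of Eif5a relative to Eif5a2 was -0.38 (SE 0.24, exact permutation p = 0.171). Eif6, the anti-association factor, stood between 8.93 and 9.09 in control and between 9.08 and 9.52 in MHC-Plin5 hearts (0.35, SE 0.11, adjusted p = 0.121). Eif1a, the autosomal eIF1A gene, had 7.01, 7.16, 6.76 and 6.91 in control and 7.0, 7.5, 7.90 and 7.12 in MHC-Plin5 hearts (0.42, SE 0.18, adjusted p = 0.276). Its X-linked counterpart Eif1ax and the eIF1 gene Eif1b had -0.04 and -0.09, and 4 rows that Eif1a shares with gene models of near-identical sequence gave 0.31 to 0.46, which cannot be assigned to 1 gene.

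**Figure D3:**
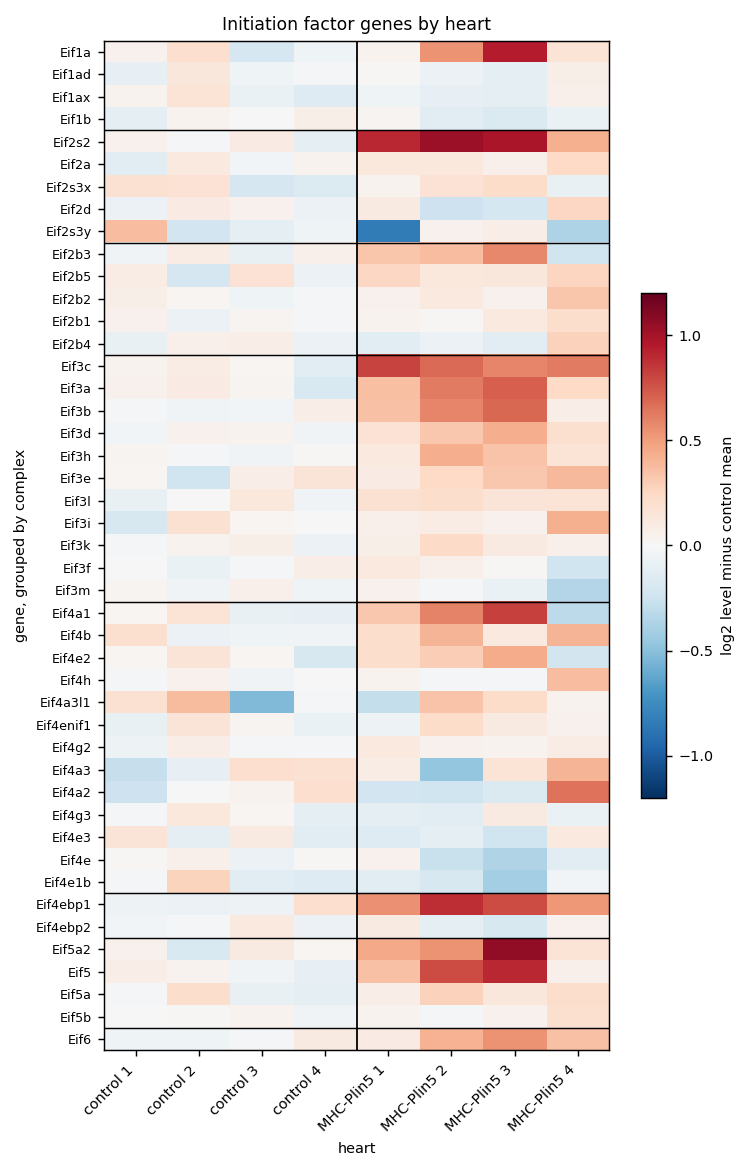
Log2 level minus the control mean (colour, from blue below to red above) of the 45 initiation factor genes (rows, grouped by complex) in each of the 8 hearts (columns). Eif2s2, Eif3c and Eif4ebp1 are red in all 4 MHC-Plin5 hearts, while Eif1a, Eif4a1, Eif5 and Eif5a2 are strongest in MHC-Plin5 2 and 3 and pale or blue in MHC-Plin5 4.

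The MHC-Plin5 hearts differed among themselves in several of these genes. Over the 8 members with separate groups, MHC-Plin5 4 was the lowest of the 4 in 4 genes and the highest in 0, and MHC-Plin5 2 was the highest in 4. These 8 were picked by the same values, so the counts only describe them. Over all 45 members MHC-Plin5 4 was the highest of its group in 17, the most of any of the 4 hearts, and the lowest in 13. The median over the 45 members of the distance from the control mean was 0.10, 0.13, 0.11 and 0.16 in MHC-Plin5 1 to 4. Over all genes MHC-Plin5 4 was the lowest of its group in 16.2% and the highest in 49.9%. Taken over the 11 eIF3 genes, the median distance above the control mean was 0.13, 0.24, 0.32 and 0.16 for MHC-Plin5 1 to 4. Plin5 in these hearts was 12.17, 12.69, 12.63 and 12.08. The array of MHC-Plin5 4 had the higher median of 6.18 against 5.99 to 6.02 in the others, and the part of this array difference in the members' values was not tested. The SD was larger in MHC-Plin5 than in control hearts in 34 of 45 members, or 75.6%, against 56.2% of all genes and 69.5% of those with a mean of at least 7.

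The number of called members depended on MHC-Plin5 4. Without it 9 were called higher and 0 lower, where 3.08% of all genes were called higher and 2.81% lower in that fit. The 9 were Eif2s2, Eif3c, Eif4ebp1, Eif3a, Eif3b, Eif5, Eif5a2, Eif4a1 and Eif2b3. With array weights 7 were called, which are these without Eif4a1 and Eif2b3. Calls rose over all 19938 genes in that fit too, to 884 higher and 741 lower from 415 and 233 in the main fit. Without any other single heart the count was 3. Eif2s2, Eif3c and Eif4ebp1 were called in all 19 other fits at the 0.05 threshold, with log2 differences of 0.77 to 0.97, 0.62 to 0.72 and 0.62 to 0.75. Their highest adjusted p was 0.0339, 0.0189 and 0.0452, the last without control 1.

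**Figure D4:**
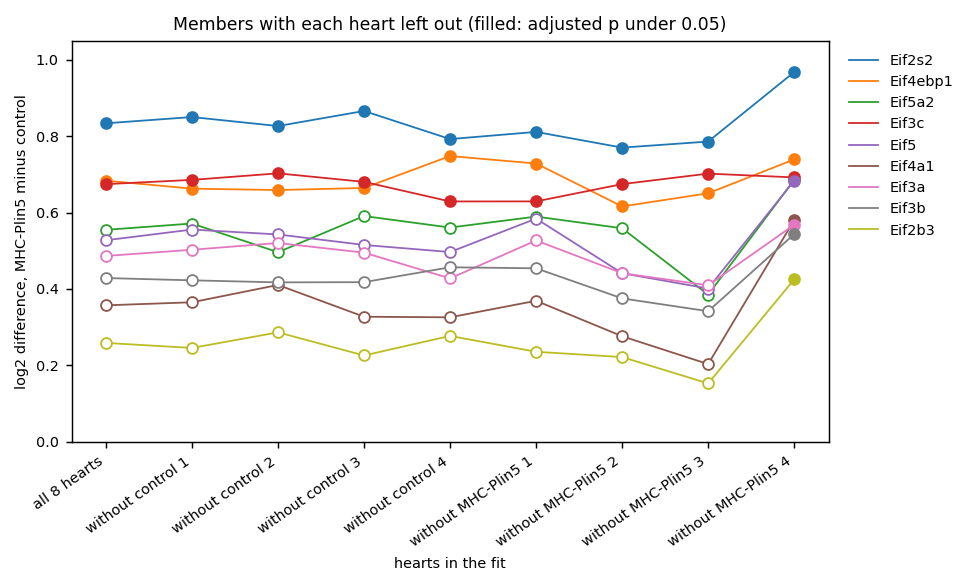
Log2 difference (MHC-Plin5 minus control, y axis) of 9 members with all 8 hearts and with each heart left out in turn (x axis); filled points have a limma adjusted p under 0.05 in that fit. Eif2s2, Eif4ebp1 and Eif3c are filled throughout, and the other 6 are filled without MHC-Plin5 4 alone.

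The genes that act on or beside the initiation factors were taken from lists of 58 symbols, of which 53 had a row of their own. Of these 53, 6 were higher and 1 lower, or 11.3% and 1.89%, against 2.08% and 1.17% of all genes. Among genes with a mean of at least 7, where 46 of the 53 lie, 3.92% were higher and 1.9% lower. The lists were chosen with earlier results of these data known. In 14 of the 53, or 26.4%, every MHC-Plin5 heart lay above every control heart, and 38, or 71.7%, had a log2 difference above 0. Over the 45 initiation factor genes these shares were 17.8% and 71.1%. They were 6.24% and 42.5% over all genes, and 11.9% and 54.3% over genes with a mean of at least 7. Among 10 measured genes of the eIF2 kinases, phosphatase subunits and GCN2 partners 1 was higher and 0 were lower. This was Ppp1r15a (GADD34), the subunit that directs a phosphatase to eIF2, at 7.03, 7.17, 7.01 and 7.23 in control and 7.76, 8.06, 8.01 and 8.18 in MHC-Plin5 hearts (0.89, SE 0.11, adjusted p = 0.00189). The groups were apart, and the 4 kinases themselves had log2 differences of -0.04 to 0.20, with 0 called.

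Among 20 regulators of mTORC1 and eIF4E, 4 were higher and 0 lower. Mknk1 and Mknk2, the kinases that phosphorylate eIF4E, were both among them. Mknk1 stood at 7.89 to 8.04 in control and 8.50 to 8.97 in MHC-Plin5 hearts (0.72, SE 0.11, adjusted p = 0.00644). Mknk2 stood at 9.32 to 9.53 and 9.79 to 10.30 (0.66, SE 0.12, adjusted p = 0.0180), and it was no longer called when MHC-Plin5 2 or any control but the first was left out. Deptor, an inhibitor within mTOR complexes, had 8.16 to 8.34 against 8.92 to 9.33 (0.90, SE 0.11, adjusted p = 0.00181). Sesn2, a leucine-sensing brake on mTORC1, had 6.13 to 6.60 against 6.86 to 7.76 (1.04, SE 0.18, adjusted p = 0.0133), and it lost its call when MHC-Plin5 2, control 1 or control 3 was left out. In each of these 4 genes every MHC-Plin5 heart lay above every control heart. Mtor itself had 0.21 (SE 0.11, adjusted p = 0.362), with overlapping groups.

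Of 10 genes of elongation and termination 1 was higher and 0 were lower. It was Eef1a1, the factor that brings tRNAs to the ribosome, at 12.58, 12.83, 12.64 and 13.11 in control and 13.52, 13.76, 13.78 and 13.46 in MHC-Plin5 hearts (0.84, SE 0.13, adjusted p = 0.00838). Eef1a1 has many near-identical copies in the genome whose signal its probes may share. The muscle form Eef1a2 had -0.04. In 5 of the 10 genes, Eef1a1, Eef1b2, Eef1e1, Eef2 and Etf1, every MHC-Plin5 heart lay above every control heart. The same separation was seen in 6.24% of all genes and in 11.9% of genes with a mean of at least 7. Eef1e1 (0.63, SE 0.15, adjusted p = 0.0504) and Etf1 (0.45, SE 0.12, adjusted p = 0.0715) missed the threshold, and each passed in some other fits. Among 11 poly(A)-binding proteins, helicases and reinitiation factors 0 were called, and the smallest p was that of the helicase Dhx29 (0.24, SE 0.10, adjusted p = 0.251). The mitochondrial initiation factor Mtif2 was the 1 lower gene, at 9.33, 8.99, 9.13 and 8.96 in control and 8.71, 8.66, 8.41 and 8.55 in MHC-Plin5 hearts (-0.52, SE 0.11, adjusted p = 0.0339). Its groups did not overlap, but the call ended without any single control, without MHC-Plin5 2 or 3, and after centring the arrays on their medians (adjusted p up to 0.105). Mtif3, which acts beside it in mitochondria, had -0.19 (adjusted p = 0.469).

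**Figure D5:**
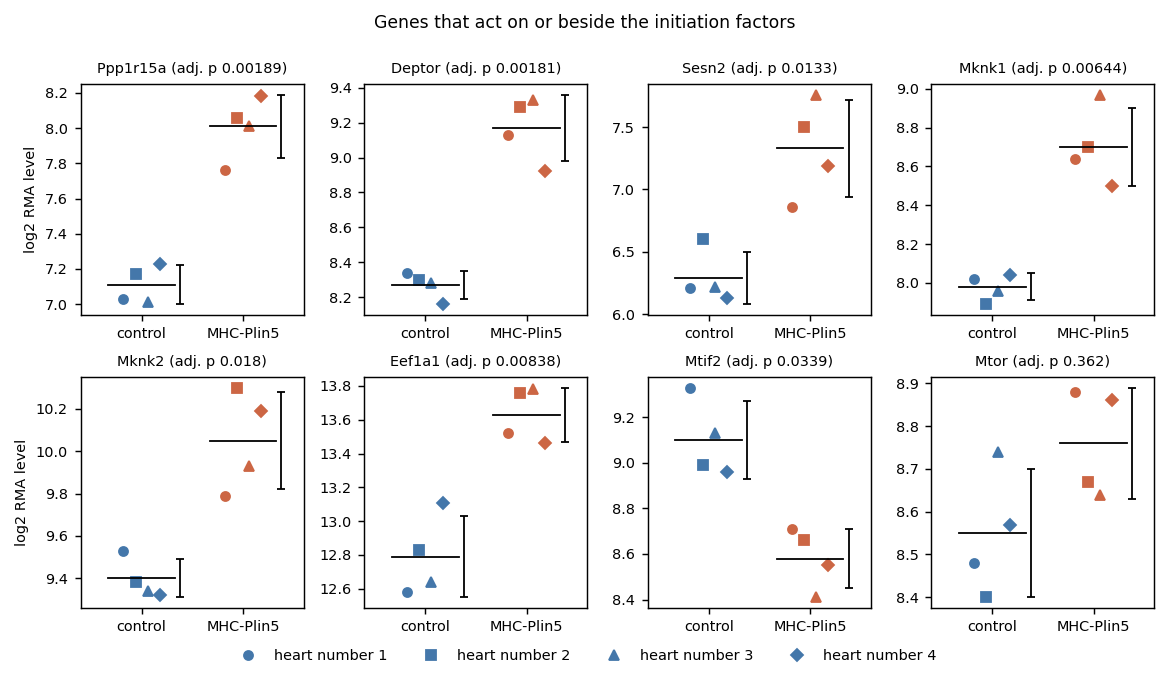
Log2 RMA level (y axis, its own scale in each panel) of the 7 called partner genes and of Mtor in 4 control and 4 MHC-Plin5 hearts, with symbols for the heart number within its group, a line for the mean and a bar for 1 SD. Ppp1r15a, Deptor, Sesn2, Mknk1, Mknk2 and Eef1a1 lie higher and Mtif2 lower in every MHC-Plin5 heart than in any control heart, and Mtor overlaps.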

How the data were processed

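Transcript levels in 8 hearts were read from the deposited table of log2 values, which the authors made with RMA; the submitters' processing notes name Affymetrix Expression Console. Neither the version nor the summary level is stated there, and scanner files and scan dates were not used, so no batch was tested. The table held 35556 rows, of which 21789 had exactly 1 gene symbol in GEO's platform annotation. The row with the highest mean was kept for each of 19938 genes, and no filter was applied.

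Genotype was tested for each gene with lmFit and eBayes of limma 3.58.1 in R 4.3.3 and Benjamini-Hochberg adjustment over all genes, and paralog pairs with an exact permutation test over hearts. The script was tested on simulated data. Python 3.11.15, pandas 2.3.3, scipy 1.17.1 and matplotlib 3.10.9 made tables and plots. Precision is limited by 4 arrays per group. Promoters are from RefSeq, GRCm38.p6.

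The members and gene lists were chosen with earlier results of these data known. Named are called members, members with separate groups, the smallest p of each complex, 4E-binding proteins and paralogs, and called partner genes or the smallest p of their list. The other members, other partner genes and the motifs were named or chosen after their values were seen. Alternatives were filters, normalizations, variance models, array weights, other rows, the heart number as a block and left-out hearts.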

Additional observations from a re-analysis of the deposited data

Results flagged for a closer look

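In the 48 groups of 4 hearts formed by the 24 members named by rule, 3 values stood apart from the other 3 of their group by more than Dixon's 95% limit, which chance passes in about 1 of 20 groups. Eif4ebp1 was at 10.18 in control 4, where the other controls lay between 9.91 and 9.92, and the call of Eif4ebp1 held without control 4 (log2 difference 0.75, limma adjusted p = 0.0154). Eif4a2 was at 11.45 in MHC-Plin5 4, where the others lay between 10.56 and 10.63. Eif4b was at 10.43 in control 1, where the others lay between 10.17 and 10.20.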

How the results depend on the processing

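All alternatives were listed as planned, and the fit without control 2 and MHC-Plin5 4 leaves out the arrays with the highest medians (6.24 and 6.18). Genes called higher numbered 415, with 884 under array weights, 129 at an adjusted p under 0.01 and 170 to 614 with single hearts left out. Genes called lower numbered 233, with 355 after a further quantile normalization, 741 under array weights, 40 at an adjusted p under 0.01 and 56 to 560 with single hearts left out. The 3 members called higher became 7 under array weights, 7 without control 2 and MHC-Plin5 4, and 3 to 9 with single hearts left out. Without control 2 and MHC-Plin5 4, 435 of all 19938 genes were called higher and 282 lower. At an adjusted p under 0.01 there were 2, since Eif4ebp1 no longer passed. With the heart number as a replicate block, 3 members were called higher and 0 lower, with 330 genes called higher and 177 lower in all. The call of Mtif2 ended with that block. Same-numbered hearts deviated from their group means with correlations of 0.19, 0.03, -0.11 and -0.04. For numbers 2, 3 and 4 a heart of another number correlated better, while for number 1 the highest such value was 0.16. Correlations of single hearts cannot settle whether equal numbers pair hearts, and the main fit used no pairing. Members called lower were 0 throughout. Eif4a2 turned to -0.04 after quantile normalization, -0.14 under array weights, -0.21 without control 2 and MHC-Plin5 4, and ranged from -0.21 to 0.09 with single hearts left out. Eif4ebp2 turned to 0.00286 with arrays centred on their medians and ranged from -0.09 to 0.01 with single hearts left out. Eif4e minus Eif4e3 turned to 0.03 without control 2 and MHC-Plin5 4. The cause of these changes was not tested, and 4 against 3 hearts cannot give an exact p below 0.0571.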
